A study of Homo sapiens with 6 samples.

Results

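DNA replication genes were examined in MDA-MB-231 cells, an established basal, triple-negative breast cancer cell line, after knockdown of the zinc finger transcription factor ZNF148. The genes are a list of 47 that encode the replication machinery and the regulators of entry into S phase. They were taken from the deposited table by symbol, and each of the 47 had its own row among the 24108 rows of the table. TYMS shares its row with the overlapping gene ENOSF1, so that value cannot be assigned to TYMS alone. All 47 passed the filter on low values (1 FPKM or more on average across the 6 libraries), as did 11777 rows in all.

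The 6 libraries comprised 3 replicates transduced with a lentiviral LKO hairpin against luciferase (shControl) and 3 replicates transduced with a lentiviral hairpin against ZNF148 (shZnf148). All received virus for 48 h and puromycin at 0.5 µg/ml for 24 h before total RNA was taken, so the selection is shared by both groups. The design has 1 hairpin in each group, and a response to this hairpin and a response to ZNF148 loss cannot be told apart. No source used here says that the replicates came from separate cultures, so p-values measure the spread between these libraries only. The study took RNA at an early passage to ask which transcripts differ soon after ZNF148 is silenced, and that question is followed here for the replication genes.

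Replication is prepared in G1, when the origin recognition complex (ORC), CDC6 and CDT1 load the MCM2-7 helicase onto DNA. Geminin (GMNN) blocks CDT1 outside G1 so that each origin is licensed once per cycle. Cyclin E with its kinase then allows CDC45 and the GINS complex to join MCM and activate it. Polymerase alpha with primase starts each strand, the clamp loader RFC places the PCNA clamp, and polymerases delta and epsilon extend the chain. Ribonucleotide reductase (RRM1 and RRM2) and thymidylate synthase (TYMS) supply the nucleotides. Many of these genes are transcribed in late G1 under the control of E2F factors, which the retinoblastoma protein holds in check. Because the RNA is from a mixed culture, more cells in a phase and more RNA per cell cannot be told apart in any value below.

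Of the 47 genes, 40 had an entry among the RefSeq promoter windows (GRCh38.p14, 250 bases before to 50 bases after a start site). Each window was searched on both strands for 4 E2F words (TTTGGCGC, TTTCGCGC, TTTCCCGC and TTTGGCGG), of which neighbouring copies may overlap. At least 1 of these words was found for 23 of the 40 genes (57.5%), beside 4.05% of the 27305 genes in the RefSeq windows and 7.02% of the 8520 genes with a window that were tested here. The CCAAT box was found for 60.0% of the 40, beside 43.8% of tested genes, and the GC box GGGCGG for 75%, beside 78.2%. The word CCCCTCCC, a C-rich run of the kind that ZNF148 is known to bind, was found for 10% of them, beside 23.6%. A match is a description of the letters in these windows and not evidence of binding. The windows of the 3 licensing factors, the group with the largest median difference when all libraries are used, and of RRM2 are shown to give the sequence context of these genes. The licensing factors were fixed for display by that rule, and RRM2 was added after its values were seen. Capitals mark the E2F words and CCAAT boxes on either strand, and all 4 genes are on the plus strand.

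CDC6, chr17:40287629-40287928: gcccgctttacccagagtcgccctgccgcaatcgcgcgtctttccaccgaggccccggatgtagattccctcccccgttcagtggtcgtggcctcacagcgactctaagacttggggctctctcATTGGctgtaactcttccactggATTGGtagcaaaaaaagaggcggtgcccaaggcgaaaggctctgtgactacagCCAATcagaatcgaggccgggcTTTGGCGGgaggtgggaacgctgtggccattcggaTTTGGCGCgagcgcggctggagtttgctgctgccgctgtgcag
CDT1, chr16:88803539-88803838: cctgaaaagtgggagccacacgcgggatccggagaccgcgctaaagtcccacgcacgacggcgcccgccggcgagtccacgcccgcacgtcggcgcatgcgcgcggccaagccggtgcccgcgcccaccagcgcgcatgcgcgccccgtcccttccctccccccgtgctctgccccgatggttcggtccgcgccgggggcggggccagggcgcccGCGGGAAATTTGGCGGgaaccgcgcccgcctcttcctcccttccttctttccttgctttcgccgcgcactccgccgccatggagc
GMNN, chr6:24775163-24775462: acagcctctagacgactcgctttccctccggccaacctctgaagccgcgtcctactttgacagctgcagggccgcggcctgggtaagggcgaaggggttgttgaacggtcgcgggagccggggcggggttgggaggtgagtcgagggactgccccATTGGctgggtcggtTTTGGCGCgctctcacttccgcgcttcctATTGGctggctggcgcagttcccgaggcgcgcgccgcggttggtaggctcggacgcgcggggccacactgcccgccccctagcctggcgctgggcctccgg
RRM2, chr2:10122489-10122788: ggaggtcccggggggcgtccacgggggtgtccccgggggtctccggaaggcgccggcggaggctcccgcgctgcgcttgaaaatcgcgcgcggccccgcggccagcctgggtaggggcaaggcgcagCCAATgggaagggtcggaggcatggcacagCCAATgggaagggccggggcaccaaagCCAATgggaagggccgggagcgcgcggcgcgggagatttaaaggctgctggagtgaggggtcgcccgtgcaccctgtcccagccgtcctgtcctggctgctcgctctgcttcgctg

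CDC6 carried 2 E2F words and 3 CCAAT boxes, and CDT1 carried 2 adjoining E2F words with no CCAAT box. The window of GMNN shown, 1 of its 2, carried 1 E2F word between 2 CCAAT boxes. RRM2, also with 2 windows, held 3 closely spaced CCAAT boxes in the window shown and none of the 4 E2F words in either. The 23 genes with an E2F word had a median log2 fold change of 0.08, and the 17 without had a median of 0.07. Of the 6 genes that rose in the comparison below, GMNN was among the 23, ORC5 and RRM2 were among the 17, and CCNE2, MCM4 and RPA2 had no entry. The search took exact words only, so a gene without them is not shown to lack control by E2F. These medians are a description and were not tested against each other.

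The knockdown was visible in the targeted gene. ZNF148 was 3.72, 4.36 and 4.30 FPKM (mapped fragments scaled by transcript length and library size) in shControl replicates 1, 2 and 3, and 0.914, 0.282 and 0.834 FPKM in shZnf148 replicates 1, 2 and 3. The groups did not overlap, and the shZnf148 mean of 0.677 ± 0.344 FPKM (SD, n = 3) was 16.4% of the shControl mean of 4.13 ± 0.354 FPKM (limma, adjusted p = 0.00990). Markers of the line were abundant, with VIM at 1507 to 1842 FPKM and CD44 at 402 to 606 FPKM. Of the 4 markers of the line, CD44, EGFR and KRT18 fell in shZnf148 and VIM did not pass, and their part in the other differences was not tested. Of the luminal markers expected to be low, ESR1 was listed at 0 in all 6 libraries, PGR reached at most 0.0830 FPKM and CDH1 at most 0.491 FPKM. The row that joins ERBB2 with MIR4728 was not low, at 20.1, 126.3 and 20.1 FPKM in shControl and 24.8, 125.0 and 21.9 FPKM in shZnf148, with replicate 2 far above the other libraries in both groups. That row cannot be assigned to ERBB2 alone. The leukocyte, endothelial, T cell and hepatocyte markers PTPRC, PECAM1, CD3E and ALB reached at most 0.136 FPKM. The number of reads is unknown. The most common ratio between low values, shared by only 252 to 307 rows in each pair of libraries, put the depth of the other libraries at 0.806 to 1.13 times that of shControl replicate 1.

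Differences were tested on log2(FPKM + 1) with limma over all 11777 rows, and Benjamini-Hochberg adjustment was over all of them. A fold change on this scale understates that of low genes. Of the 47 genes, 6 rose in shZnf148 at an adjusted p under 0.05 (12.8%, where 5.46% of all tested rows rose) and 0 fell (8.13% of all tested rows fell). The 6 were CCNE2, ORC5, RRM2, RPA2, GMNN and MCM4. With the filter raised to a mean of 5 FPKM, which all 47 genes passed, 7 of them rose, where 6.61% of all rows then tested did. Without adjustment, limma gave p under 0.05 for 9 genes that were higher and 4 that were lower. Only CCNE2 also exceeded 1.5-fold, as did 1.83% of all tested rows upward and 3.66% downward. The median log2 fold change of the 47 was 0.08, beside 0.01 over all tested rows, and 33 of them were above 0 (70.2%, where 50.9% of all rows were). In 11 genes (23.4%) every shZnf148 value lay above every shControl value, as in 20.0% of all rows, and in 4 genes (8.51%) every value lay below, as in 21.0% of all rows. An exact two-sided permutation test cannot give a p under 0.1 with 3 libraries against 3, and it gave 0.1 for each of these 15 genes.

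The call depended on single libraries. Without shControl replicate 1, shControl replicate 3 or shZnf148 replicate 1 in turn, limma called 0 of the 47 genes, with 8, 9 and 8 higher at an unadjusted p under 0.05. The calls over all 11777 rows then fell from 643 higher and 957 lower to 3 and 26, 3 and 19, and 82 and 257. Without shControl replicate 2 the calls were CCNE2 and ORC5, and without shZnf148 replicate 3 they were CCNE2, ORC5 and RRM2. Without shZnf148 replicate 2, 11 genes were called. Rescaling the libraries to equal total FPKM turned the split over all rows to 1188 higher and 686 lower, and called E2F1 and MCM6 in addition to the 6.

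**Figure D1:**
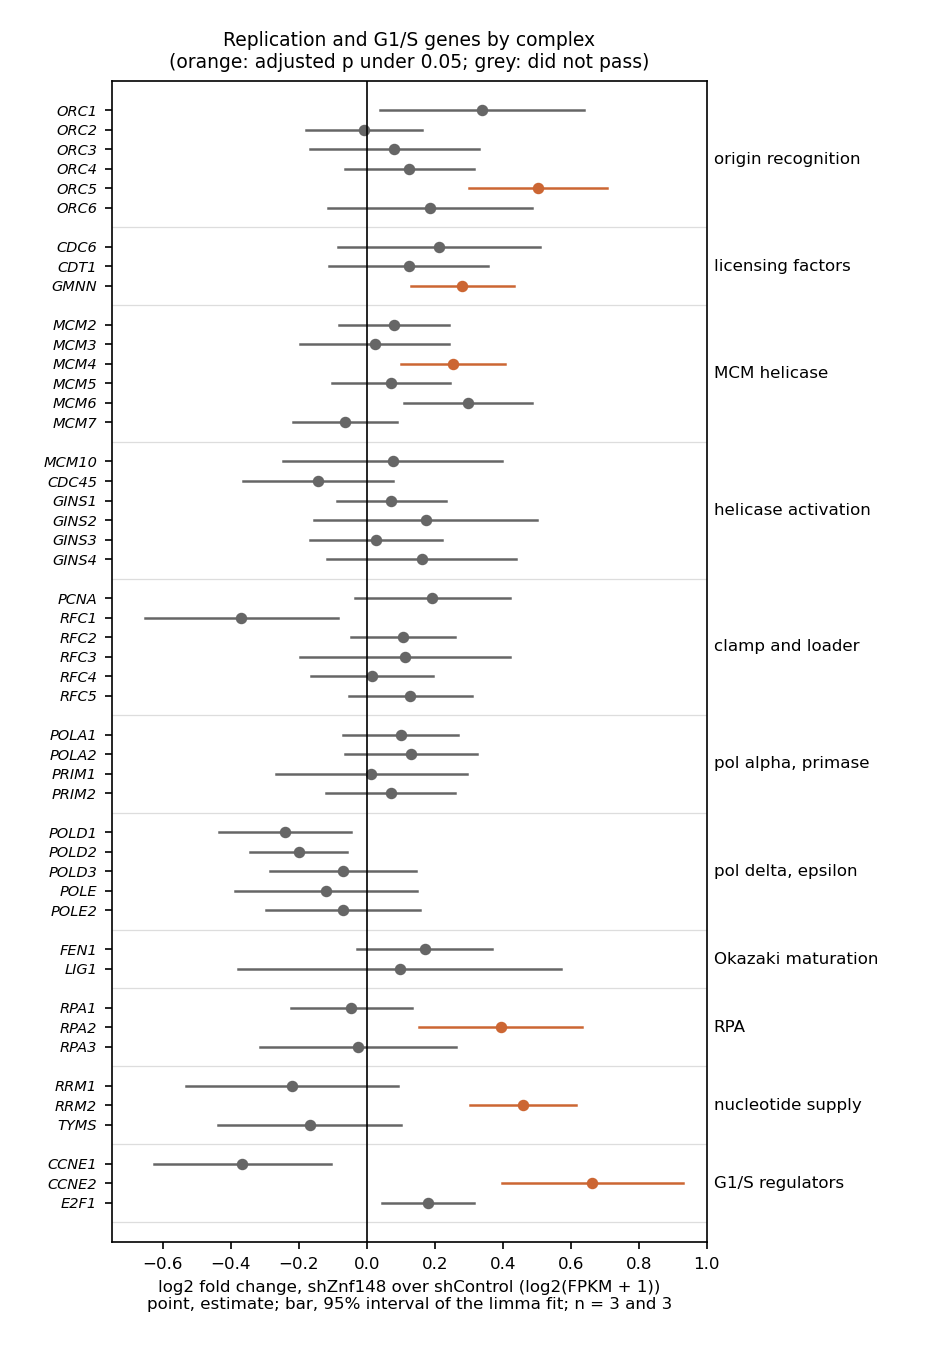
Log2 fold change of each of the 47 genes (x axis, shZnf148 over shControl on log2(FPKM + 1)) by complex. Points are limma estimates, bars their 95% intervals, and orange marks an adjusted p under 0.05. The 6 orange genes lie in 6 different groups, all to the right of 0, and all 5 genes of polymerases delta and epsilon lie to the left.

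Among the G1/S regulators, the E-type cyclins had estimates of opposite sign, and only that of CCNE2 passed. CCNE2 was 9.29, 12.4 and 9.81 FPKM in shControl and 17.6, 17.2 and 16.5 FPKM in shZnf148 replicates 1, 2 and 3. Every shZnf148 library was above every control, with the higher control, replicate 2, nearest to them. CCNE2 had a log2 fold change of 0.66 (SE 0.11, limma adjusted p = 0.0201), and its mean was 1.63 times that of shControl. CCNE1, the other activator of CDK2 at the G1/S boundary, was 8.72, 9.95 and 9.74 FPKM in shControl and 8.25, 6.33 and 6.89 FPKM in shZnf148. All shZnf148 values of CCNE1 lay below the controls, but the log2 fold change of -0.37 did not pass (95% interval -0.63 to -0.10, adjusted p = 0.0691). Within a library, where scaling cancels, the ratio of CCNE2 to CCNE1 was 1.06, 1.25 and 1.01 in shControl and 2.14, 2.71 and 2.40 in shZnf148. CCNE2 thus went from about level with CCNE1 to over it in each knockdown library (2.18-fold). The exact two-sided permutation p of this ratio was 0.1, the smallest possible. The pair was chosen after the values were seen, so that p is not separate support. E2F1, the transcription factor that activates S-phase genes, was 37.4, 35.1 and 36.6 FPKM in shControl and 41.9, 41.1 and 41.0 FPKM in shZnf148. Its groups did not overlap, yet the difference was small and did not pass (log2 fold change 0.18, 95% interval 0.04 to 0.32, adjusted p = 0.0802).

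In ribonucleotide reductase, RRM2 rose and RRM1 did not pass. RRM2, the small subunit whose level changes through the cell cycle, was 80.6, 88.0 and 91.9 FPKM in shControl and 120.9, 118.0 and 119.9 FPKM in shZnf148. The 3 knockdown libraries were nearly level, with an SD of 1.47 FPKM, and all above the controls (log2 fold change 0.46, standard error 0.07, adjusted p = 0.0150 from limma). RRM1, the large catalytic subunit, was 62.2, 66.9 and 60.6 FPKM in shControl and 56.9, 44.2 and 63.0 FPKM in shZnf148, where the groups overlapped and shZnf148 replicate 2 was lowest (log2 fold change -0.22, 95% interval -0.53 to 0.09, adjusted p = 0.281). The ratio of RRM2 to RRM1 was 1.30, 1.31 and 1.52 in shControl and 2.12, 2.67 and 1.90 in shZnf148, again without overlap. The row of TYMS and ENOSF1 was 175, 181 and 183 FPKM in shControl and 173, 133.5 and 177 FPKM in shZnf148. Replicates 1 and 3 of that row were near the controls and replicate 2 was far below them (log2 fold change -0.17, adjusted p = 0.334).

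**Figure D2:**
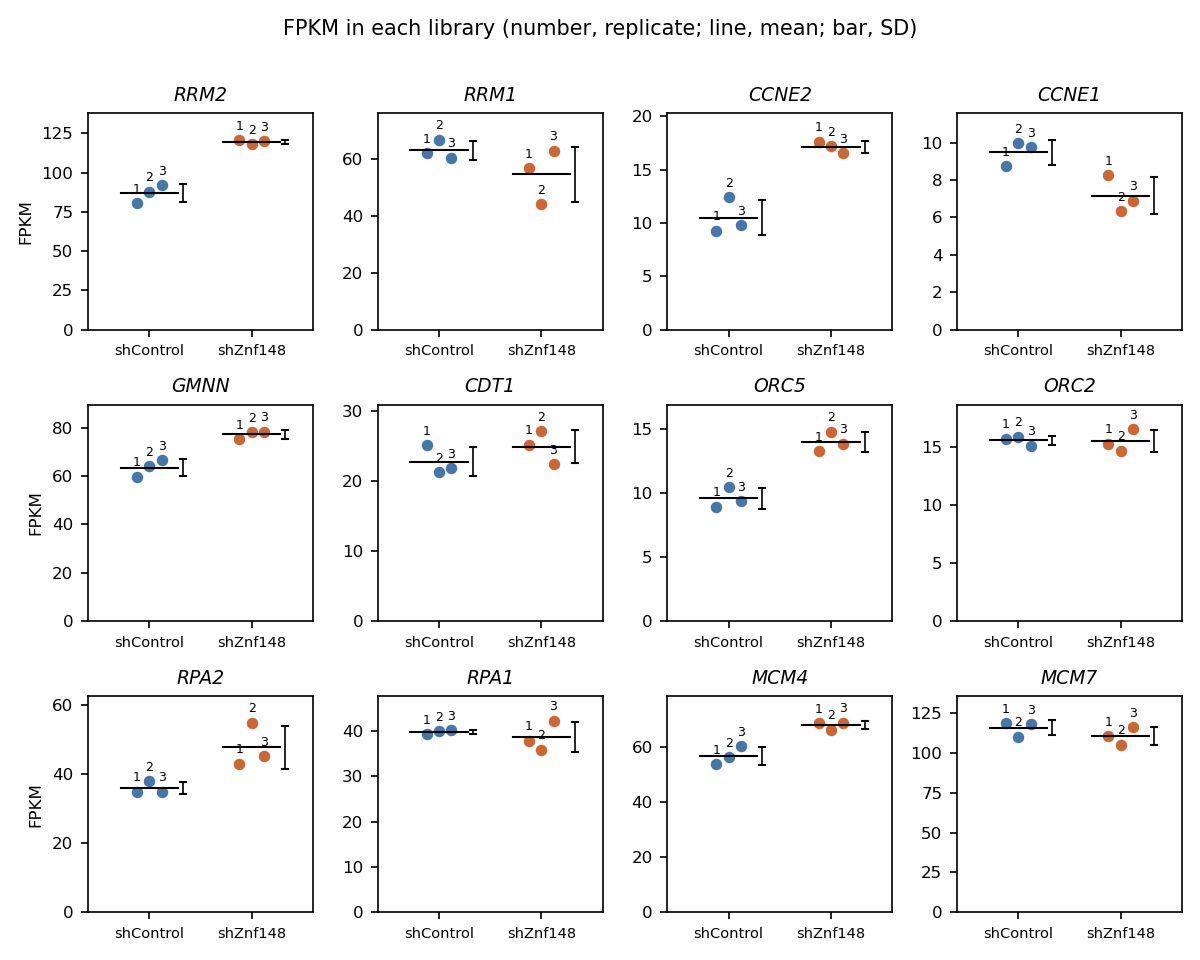
FPKM (y axis, from 0) in each library for 6 genes that rose and, to the right of each, another subunit or partner. Numbers are replicates, lines group means and bars SDs (n = 3). RRM2 lay at 118.0 to 120.9 FPKM in the 3 shZnf148 libraries and at 80.6 to 91.9 FPKM in the controls, while RRM1 overlapped between groups.

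In the origin recognition complex, 5 of 6 subunits had estimates above 0 and 1 rose. ORC5, an ATP-binding subunit of the complex, was 8.95, 10.5 and 9.36 FPKM in shControl and 13.3, 14.8 and 13.9 FPKM in shZnf148. These groups were well apart, and the mean was 1.46 times that of shControl (log2 fold change 0.50, standard error 0.08, adjusted p = 0.0204). Relative to ORC2 in the same library, ORC5 went from 0.570 to 0.660 in shControl to 0.841 to 1.01 in shZnf148. ORC1, whose ATPase drives helicase loading, was 7.58, 8.01 and 8.33 FPKM in shControl and 12.02, 8.50 and 10.8 FPKM in shZnf148. Replicate 2 of ORC1 lay just above the highest control, and the gene did not pass (log2 fold change 0.34, 95% interval 0.04 to 0.64, adjusted p = 0.114). ORC4 was at 4.83 to 5.26 FPKM in shControl and at 5.41 to 5.71 FPKM in shZnf148, the lowest level of the 47 genes (adjusted p = 0.310). ORC2, ORC3 and ORC6 overlapped between groups, with log2 fold changes of -0.01 to 0.19.

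The 3 licensing factors had a median log2 fold change of 0.21, the largest of the 11 groups in size with all 6 libraries, and their estimates stayed above 0 under all 18 alternatives. The rank did not hold without shControl replicate 1 or 3 or without shZnf148 replicate 1 or 3, where the median was 0.19, 0.21, 0.15 and 0.19 and that of another group was larger in size. GMNN was 59.6, 64.0 and 66.5 FPKM in shControl and 75.1, 78.0 and 78.3 FPKM in shZnf148. No knockdown library reached down to the controls (log2 fold change 0.28, standard error 0.06, adjusted p = 0.0362). CDT1, the loading factor that geminin inhibits, was 25.2, 21.3 and 21.9 FPKM in shControl and 25.2, 27.1 and 22.4 FPKM in shZnf148. Its groups overlapped (log2 fold change 0.12, 95% interval -0.11 to 0.36, adjusted p = 0.412), and the ratio of CDT1 to GMNN, 0.329 to 0.422 in shControl and 0.286 to 0.348 in shZnf148, overlapped too. CDC6, the ATPase that acts with ORC, was 29.9, 35.7 and 32.6 FPKM in shControl and 41.4, 31.7 and 41.9 FPKM in shZnf148. Replicates 1 and 3 of CDC6 exceeded every control while replicate 2 fell among them, and it did not pass (log2 fold change 0.21, adjusted p = 0.276).

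The MCM helicase is a ring of 6 subunits, and 1 of their transcripts passed. MCM4 was 53.7, 56.1 and 60.2 FPKM in shControl and 68.4, 66.0 and 68.6 FPKM in shZnf148. All 3 values were above the controls (log2 fold change 0.25, standard error 0.06, adjusted p = 0.0465). MCM6 was 49.9, 48.0 and 53.2 FPKM in shControl and 63.8, 56.8 and 66.0 FPKM in shZnf148, also without overlap, and fell just short of the threshold (log2 fold change 0.30, standard error 0.08, adjusted p = 0.0522). MCM2 was 32.1, 34.4 and 34.6 FPKM in shControl and 37.1, 33.6 and 36.4 FPKM in shZnf148, which overlapped (log2 fold change 0.08, 95% interval -0.08 to 0.24, adjusted p = 0.441). MCM3, MCM5 and MCM7 overlapped as well, with log2 fold changes of 0.02, 0.07 and -0.06. The 95% interval for MCM7 ran from -0.22 to 0.09, which leaves out an increase of the size estimated for MCM4. The ratio of MCM4 to MCM7 was 0.453, 0.509 and 0.510 in shControl and 0.620, 0.628 and 0.590 in shZnf148, without overlap.

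**Figure D3:**
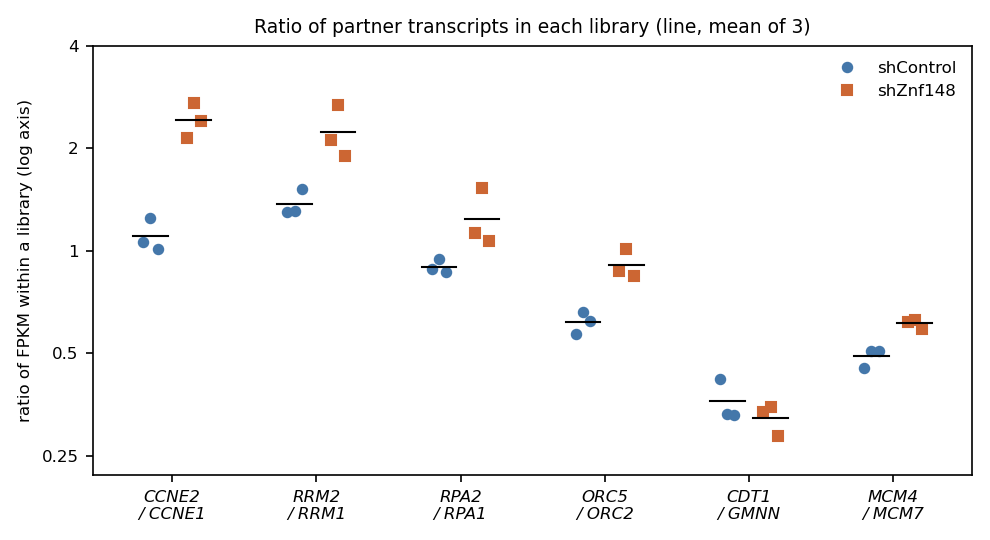
Ratio of FPKM between partner transcripts within each library (y axis, log scale), with shControl as circles, shZnf148 as squares and lines at the mean of 3. The ratio of CCNE2 to CCNE1 went from 1.01 to 1.25 in shControl to 2.14 to 2.71 in shZnf148, and only the ratio of CDT1 to GMNN overlapped between groups. The pairs were chosen after the values were seen. In the other pairs, a gene that rose was set over the gene with the lowest estimate of its group. Their lack of overlap is therefore not separate support.

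No gene passed among the factors that activate the helicase. Their log2 fold changes ran from -0.14 for CDC45, a component of the active helicase, to 0.17 for GINS2. GINS2 was 27.4, 26.5 and 28.7 FPKM in shControl and 38.5, 26.0 and 30.2 FPKM in shZnf148, so that replicate 1 stood far above and replicate 2 below all controls (adjusted p = 0.408). MCM10, GINS1, GINS3 and GINS4 overlapped between groups with adjusted p-values of 0.367 to 0.840.

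The clamp PCNA had the highest mean of the 47 genes, at 173 FPKM over the 6 libraries. It was 165.9, 151 and 166.5 FPKM in shControl and 180.1, 166.1 and 209 FPKM in shZnf148, and the groups overlapped through replicate 2 (log2 fold change 0.19, 95% interval -0.04 to 0.42, adjusted p = 0.204). RFC1, the large subunit of the clamp loader, was 21.5, 22.1 and 22.9 FPKM in shControl and 17.6, 14.1 and 19.6 FPKM in shZnf148. All knockdown values of RFC1 were below the controls, and it did not pass (log2 fold change -0.37, 95% interval -0.65 to -0.09, adjusted p = 0.0830). The 4 small subunits RFC2 to RFC5 had log2 fold changes of 0.02 to 0.13 and did not pass either.

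No gene of the polymerases passed among the 47. All 4 genes of polymerase alpha and primase had estimates above 0, from 0.01 for PRIM1 to 0.13 for POLA2. POLA2, the B subunit, was 18.6, 20.3 and 18.4 FPKM in shControl and 22.6, 19.4 and 21.1 FPKM in shZnf148 (adjusted p = 0.298). All 5 genes of polymerases delta and epsilon had estimates below 0, with a median log2 fold change of -0.12. That median was -0.04 without shZnf148 replicate 2, -0.20 without shZnf148 replicate 3 and -0.05 with equal totals, and the difference from polymerase alpha was not tested. POLD1, the catalytic subunit of delta, was 26.3, 22.3 and 25.9 FPKM in shControl and 21.5, 20.3 and 20.7 FPKM in shZnf148, with no overlap (log2 fold change -0.24, 95% interval -0.43 to -0.05, adjusted p = 0.0927). POLD2, its accessory subunit, was at 119.8 to 130.4 FPKM in shControl and 107.7 to 112.4 FPKM in shZnf148 (log2 fold change -0.20, adjusted p = 0.0688). POLD3, POLE and POLE2 overlapped between groups. These 5 estimates stayed below 0 under every alternative except without shZnf148 replicate 2, where 4 of 5 did.

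The flap nuclease FEN1, which trims Okazaki fragments, was 56.4, 59.4 and 58.7 FPKM in shControl and 67.7, 58.5 and 71.1 FPKM in shZnf148, with replicate 2 among the controls (log2 fold change 0.17, adjusted p = 0.202). The ligase LIG1 was 39.6, 23.9 and 39.5 FPKM in shControl and 37.0, 32.0 and 39.0 FPKM in shZnf148. The low value of shControl replicate 2 gave LIG1 the widest interval of the 47 genes (log2 fold change 0.10, 95% interval -0.38 to 0.57, adjusted p = 0.760).

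RPA, the trimer that coats single-stranded DNA, again had 1 subunit that rose. RPA2, the subunit phosphorylated when replication stalls, was 34.8, 37.8 and 34.8 FPKM in shControl and 42.9, 54.7 and 45.2 FPKM in shZnf148. Here replicate 2 was the highest library (log2 fold change 0.39, standard error 0.10, adjusted p = 0.0478). RPA1 and RPA3 overlapped between groups, with log2 fold changes of -0.05 and -0.03. The ratio of RPA2 to RPA1 was 0.885, 0.944 and 0.866 in shControl and 1.13, 1.53 and 1.07 in shZnf148, without overlap.

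Within shZnf148, replicate 2 differed from its group in most of these genes. It was the lowest of the 3 knockdown libraries in 36 of the 47 (76.6%), beside 38.7% of all tested rows. Relative to the mean of replicates 1 and 3, its median log2 difference was -0.15 over the 47 genes and 0.00 over all rows. The median log2 deviation of the 47 genes from the shControl mean was 0.13 in replicate 1, -0.04 in replicate 2 and 0.14 in replicate 3, so the small upward median of the list was absent in replicate 2. ZNF148 itself was also lowest there, at 0.282 FPKM. Of the 6 genes that rose, ORC5 and RPA2 were highest in replicate 2, CCNE2 and GMNN were in the middle there, and RRM2 and MCM4 were lowest there but above every control. Without that library, CDC6, FEN1, GINS4, MCM6 and ORC1 passed in addition to the 6. In summed FPKM, shZnf148 replicates 1, 2 and 3 were at 2033, 1839 and 2093 over the 47 genes. Replicate 2 was also lowest over the further replication factors (1087, 1050 and 1161) and further nucleotide genes (1026, 969 and 1018) described below. It was narrowly lowest over the mitotic list too (2514, 2472 and 2496), but highest over the further G1/S list (839, 936 and 843). Such sums are weighted to abundant genes and need not hold for a whole list. In the G1/S list, CDKN1A (79.0, 117.4 and 80.0 FPKM) and CCND3 (93.0, 120.2 and 90.7 FPKM) were highest in shZnf148 replicate 2. CDK6 (16.0, 10.1 and 15.5 FPKM) was lowest there. The part of shZnf148 replicate 2 in the differences was not otherwise tested. Among the controls, replicate 1 was lowest in 53.2% of the 47 genes and in 35.0% of all rows. Control replicate 3 was lowest in 10.6% and 30.8%, so uneven libraries were not limited to shZnf148 replicate 2.

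Other genes of the same pathways were taken from lists set by function. Of 29 further replication factors, 4 rose (13.8%) and 1 fell (3.45%), where 5.46% of all tested rows rose and 8.13% fell. Their median log2 fold change was 0.07. CLSPN, the checkpoint adaptor claspin, was 6.32, 7.98 and 7.75 FPKM in shControl and 10.04, 10.2 and 12 FPKM in shZnf148 (log2 fold change 0.50, adjusted p = 0.0378). POLD4, the smallest subunit of polymerase delta, was 74.1, 64.2 and 63.1 FPKM in shControl and 44.1, 47.3 and 48.2 FPKM in shZnf148 (log2 fold change -0.52, adjusted p = 0.0179). The other 3 that rose were RNASEH2C, a subunit of the nuclease that removes RNA from DNA, POLE3, a small subunit of polymerase epsilon, and DONSON, a factor of helicase assembly, with log2 fold changes of 0.41, 0.34 and 0.32 (adjusted p = 0.0258, 0.0494 and 0.0495). POLE3 thus rose, while POLE and POLE2 had estimates below 0 with 95% intervals that include 0 (-0.39 to 0.15 and -0.30 to 0.16). Whether the subunits of polymerase epsilon differ in direction was not tested. Of 12 further genes of nucleotide supply, 1 rose (8.33%) and 2 fell (16.7%), beside the same shares of all rows. SAMHD1, which degrades deoxynucleotides, was 20.8, 24.4 and 24.7 FPKM in shControl and 36.2, 42.4 and 33.6 FPKM in shZnf148 (log2 fold change 0.66, adjusted p = 0.0201). IMPDH2, the rate-limiting enzyme of guanine nucleotide synthesis, and DTYMK, the thymidylate kinase, were the 2 that fell (log2 fold changes -0.34 and -0.33, with limma adjusted p-values of 0.0213 and 0.0455).

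Genes that control the G1/S transition upstream moved in both directions. Of 27 cyclin, kinase, inhibitor and E2F-RB genes, 25 were tested, of which 6 rose (24%) and 4 fell (16%). Over all tested rows, 5.46% rose and 8.13% fell. CDC25A, the phosphatase that activates CDK2, was 8.96, 10.4 and 11.1 FPKM in shControl and 15.01, 19.3 and 15.4 FPKM in shZnf148 (log2 fold change 0.65, adjusted p = 0.0246). CCND1, the D-type cyclin that starts RB phosphorylation, rose with a log2 fold change of 0.58 (adjusted p = 0.0169), and SKP2, the ubiquitin ligase subunit that removes p27, with 0.42 (adjusted p = 0.0201). The CDK inhibitor CDKN2C, the retinoblastoma gene RB1 and the mostly repressive factor E2F4 also rose, with log2 fold changes of 0.55, 0.31 and 0.32 (adjusted p = 0.0410, 0.0258 and 0.0459). E2F5 and E2F7, both known as repressors of E2F targets, fell from 8.16 to 9.39 FPKM in shControl to 4.69 to 5.16 FPKM in shZnf148, and from 22.9 to 26.7 to 14.8 to 15.9 FPKM (log2 fold changes -0.74 and -0.67, adjusted p = 0.0106 and 0.0108). The CDK inhibitor CDKN1C and the RB relative RBL2 were the other 2 that fell (log2 fold changes -0.58 and -0.35, limma adjusted p = 0.0400 and 0.0218). CDKN1C was 1.95, 1.32 and 1.64 FPKM in shControl and 0.766, 0.774 and 0.716 FPKM in shZnf148. It passed the filter of 1 FPKM only through its shControl values, so its place among the 4 that fell is not firm. The kinases CDK2 and CDK6 and the E2F partner TFDP2 were also below every control in every shZnf148 library but did not pass (log2 fold changes -0.25, -0.40 and -0.25, adjusted p = 0.0562, 0.152 and 0.115). RBL1, E2F2 and E2F6 were above every control and did not pass either (log2 fold changes 0.44, 0.37 and 0.29, limma adjusted p = 0.059, 0.072 and 0.093). Of the 25 genes, 9 (36%) lay wholly above the controls, as did 20.0% of all rows. Another 7 (28%) lay wholly below, as did 21.0% of all rows.

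A list of 28 mitotic genes was set beside the replication genes. Its median log2 fold change was -0.06, with 8 of 28 genes above 0 (28.6%, where 50.9% of all rows were). In this list 1 gene rose (KIF20A, a mitotic kinesin) and 1 fell (BUB1, a spindle checkpoint kinase). Each is 3.57% of the list, where 5.46% of all tested rows rose and 8.13% fell. The largest estimates were -0.34 for both CCNA2, cyclin A, and TTK, another checkpoint kinase, neither of which passed (adjusted p = 0.101 and 0.0541). MKI67, the proliferation marker, has 2 rows, and in the more abundant it was 36.4, 45.7 and 40.3 FPKM in shControl and 41.2, 34.6 and 39.5 FPKM in shZnf148, where the groups overlapped (adjusted p = 0.616). The difference between the lists was not tested.

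**Figure D4:**
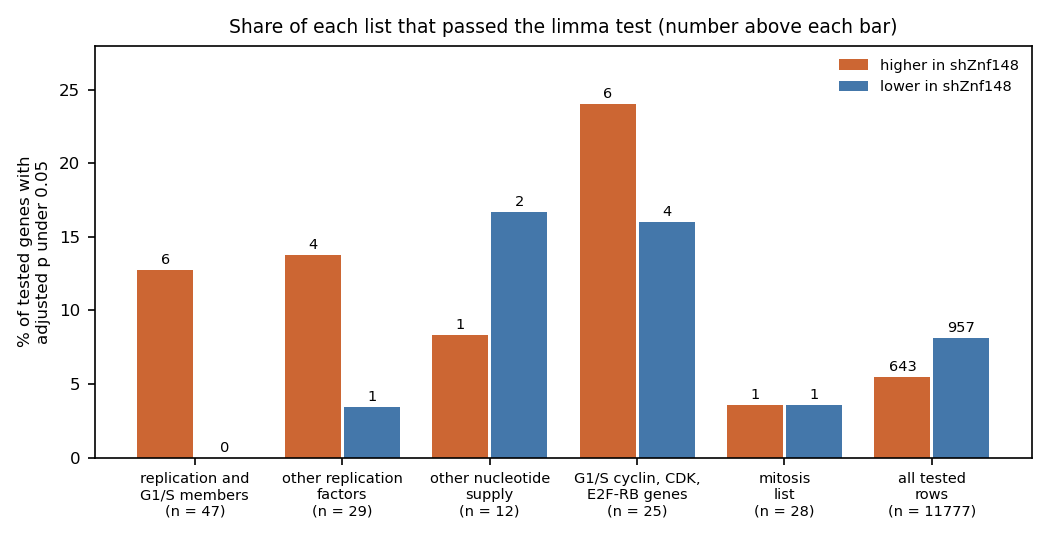
Share of each list (y axis, % of tested genes) with an adjusted p under 0.05 from limma, higher (orange) or lower (blue) in shZnf148, with the number of genes above each bar. Of the 47 replication and G1/S genes 6 were higher and 0 lower, beside 5.46% and 8.13% of all tested rows.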

How the data were processed

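RNA-seq libraries of 3 shControl and 3 shZnf148 replicates were compared. The values are FPKM as deposited by the authors, in 1 table with 6 columns of values, all of which were used. The submitters' processing notes name bcl2fastq 2.17.1.14, TopHat2 2.0.14, Cufflinks 2.2.1 and Cuffnorm 2.2.1 with the builds hg18 and hg19, while the study's methods name Salmon, DESeq2 and GRCh38. The annotation and the scaling between libraries are not given in the sources used here. Read counts were not analysed here, so the precision of each value is known only from the replicates.

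Rows averaging 1 FPKM or more were fitted as log2(FPKM + 1) with limma 3.58.1 (R 4.3.3), with group as the only term and eBayes with a mean-variance trend. Benjamini-Hochberg adjustment was over 11777 rows. Thresholds were an adjusted p of 0.05 and, where stated, a change of 1.5-fold. Among the tested rows, 173 were listed at 0 in a library, and none of these was a member. No 2 libraries held identical values, and correlations across rows were 0.949 to 0.961 within groups and 0.931 to 0.953 between groups. In simulated data of 11777 rows with independent normal noise, 100 rows were changed by 0.5 and 100 by 1 on the log2 scale. Of these, 39% and 84% were called, with 6 false calls. Rows of low mean were not among those changed, and far fewer rows were changed than were called in the data. The rates in the real data may thus differ. A gene that did not pass is therefore not shown to be unchanged.

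The members, the groups, the lists and the alternatives were chosen with earlier results of these data known. Values in every library are given for genes that passed, for 10 named regulators and for the gene with the largest difference in each of 11 groups. From the other lists, genes past both thresholds or otherwise the 2 largest were named, and the rest were added after their values were seen. The 7 within-library ratios and RRM2's promoter were also chosen after the values were seen. Apart from CDT1 over GMNN, each ratio had as its denominator the gene with the lowest estimate of its group. C15orf42 and CTPS were read as TICRR and CTPS1 through RefSeq synonyms. Promoters were read from RefSeq windows, whose build need not be that of the table. Python 3.11.15 was used for the remaining steps.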

Additional observations from a re-analysis of the deposited data

How the results depend on the processing

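The 19 members named by the rule kept their direction under all 18 alternatives. Their calls stayed on the same side of the threshold 298 times, were lost 34 times and were gained 10 times. The number of members that rose, 6, became 3 without a variance trend and ran from 0 to 11 with 1 replicate left out. The number that fell was 0 under every alternative. CCNE2, the 1 member past 1.5-fold, no longer exceeded it with a pseudocount of 5 FPKM (0 members), and the count ran from 0 to 1 with 1 replicate left out. The median log2 fold change of the members, 0.08, ran from 0.07 to 0.12 with 1 replicate left out. With equal totals it was 0.15, with 13 members higher and 1 lower at an unadjusted p under 0.05 in place of 9 and 4, and the median of all rows moved from 0.01 to 0.07. Over all rows, 643 rose and 957 fell. Without a filter on low values 401 rose, with equal totals 1188 rose, and with 1 replicate left out 3 to 628 rose and 19 to 1092 fell. Leaving out a library also leaves fewer samples to estimate the spread. The cause of the other changes was not tested.

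The replicate numbers are shared by both groups, but same-numbered libraries did not deviate together over all rows (correlations of 0.001, -0.088 and 0.030). A single row can still do so, as the row of ERBB2 and MIR4728 did, with 126.3 and 125.0 FPKM in the replicates numbered 2 and 20.1 to 24.8 FPKM in the other 4 libraries. When the replicate number entered as a block, 2 members rose (ORC5, adjusted p = 0.0491, and RRM2, 0.0498), 0 exceeded 1.5-fold, and 130 rows rose and 271 fell. The number of reads behind the FPKM values is unknown, which limits what can be said of low genes such as ORC4 and CCNE1.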
